A study of Mus musculus with 8 samples.

Results

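The E2F transcription factors E2f1 to E2f8 and the retinoblastoma proteins Rb1 and Rbl1 were followed in tumour cells sorted for how strongly a replication gene promoter was active. These 10 of 18193 named genes were read by 22 of the 45101 probe sets of a mouse Affymetrix array, namely every probe set that the platform's annotation pairs with one of the 10 symbols. The cells were Lewis lung carcinoma (LLC) and colon26 colon carcinoma cells that carry EGFP under the mouse promoter of PSF1, the GINS subunit encoded by Gins1. They had grown as subcutaneous tumours for 4 weeks (LLC) or 2 weeks (colon26), and dissociated tumours were sorted into EGFP-high and EGFP-low cells. The 4 groups were LLC EGFP-high, LLC EGFP-low, colon26 EGFP-high and colon26 EGFP-low, each with 2 arrays numbered 1 and 2; all 4 carried the reporter and none was left unsorted. The labels call the arrays biological replicates without saying whether they came from separate tumours or mice, so p-values measure only the spread between these samples, which may be technical. EGFP reports promoter activity in these engineered lines and not the level of the endogenous protein.

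E2F factors bind the promoters of genes needed for DNA synthesis and mitosis. E2F1, E2F2 and E2F3 are known mainly as activators, E2F4 and E2F5 as repressors that work with pocket proteins, E2F6 as a repressor found in Polycomb complexes, and E2F7 and E2F8 as atypical repressors that bind DNA without a DP partner. The retinoblastoma protein pRB (Rb1) and p107 (Rbl1) are pocket proteins that hold E2F factors inactive until cyclin-dependent kinases phosphorylate them. E2f7, E2f8 and Rbl1 are themselves textbook targets of E2F, and their transcripts normally accumulate as cells enter S phase.

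Promoter windows are printed for E2f7, Rbl1 and E2f8, the members that changed, and for E2f3, whose window holds both elements searched, because E2F factors act through such promoter elements. RefSeq windows of build GRCm38.p6, cut to the 250 bases before and 30 bases after the annotated start, were at hand for 7 of the 10 members. E2f4, E2f5 and Rb1 had none. Both strands were searched for the E2F words TTTCCCGC, TTTCGCGC, TTTGCCGC and TTTGGCGC, and for the cell cycle homology region (CHR) word TTTGAA, a binding element of the MuvB complex. No word overlaps another in the windows printed. Each sequence runs 5′ to 3′ on the gene's own strand, and capitals mark the words found.
E2f7 (chr10:110745189-110745468, plus strand): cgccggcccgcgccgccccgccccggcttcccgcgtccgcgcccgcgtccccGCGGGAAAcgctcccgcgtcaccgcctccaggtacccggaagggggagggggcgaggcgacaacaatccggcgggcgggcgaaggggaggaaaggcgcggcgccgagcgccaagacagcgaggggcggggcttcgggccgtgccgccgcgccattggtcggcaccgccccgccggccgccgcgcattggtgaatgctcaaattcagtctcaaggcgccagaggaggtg
Rbl1 (chr2:157204505-157204784, minus strand): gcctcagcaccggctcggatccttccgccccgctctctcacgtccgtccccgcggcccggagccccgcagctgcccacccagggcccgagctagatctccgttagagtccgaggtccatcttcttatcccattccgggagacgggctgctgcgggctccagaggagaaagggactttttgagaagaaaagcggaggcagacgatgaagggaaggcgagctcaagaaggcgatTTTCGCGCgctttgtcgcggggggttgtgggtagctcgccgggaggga
E2f3, first start (chr13:29986034-29986313, minus strand): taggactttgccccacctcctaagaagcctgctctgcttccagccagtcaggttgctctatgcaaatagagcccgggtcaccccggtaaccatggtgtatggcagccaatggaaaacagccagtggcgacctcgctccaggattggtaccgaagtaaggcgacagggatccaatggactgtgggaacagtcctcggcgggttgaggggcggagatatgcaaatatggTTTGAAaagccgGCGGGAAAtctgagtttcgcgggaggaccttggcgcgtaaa
E2f8, 30 bases around its CHR word (chr7:48881599-48881628, minus strand): gagcgggttaatTTCAAAtcgggggctgga
The E2f7 window held GCGGGAAA, an E2F word on the opposite strand, 198 bases before the start. The Rbl1 window held TTTCGCGC 18 bases before the start. The first E2f3 window held GCGGGAAA 11 bases and TTTGAA 23 bases before the start. The E2f8 window held no E2F word and 1 CHR word 20 bases before the start, which lies 477 bases inside the annotated gene. The second E2f2 window held a CHR word, and the windows of E2f1 and E2f6, the first of E2f2 and the second of E2f3 held neither. Several of these starts also lie inside the annotated gene, by 466 bases for E2f1 and 56 for E2f6. The second starts of E2f2 and E2f3 lie 8508 and 1673 bases inside, so these windows may miss the promoter at the gene's 5′ end. Of all 32841 windows of this length, 2.12% held an E2F word and 17.16% the CHR word. A match describes letters only, and no match says only that these letters are absent from the window.

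Levels are the deposited log2 values, and a change between the sorts is EGFP-high minus EGFP-low of those values. Each change was tested with limma with the pair of arrays that share a line and a number as a block, and p-values were Benjamini-Hochberg adjusted over the 22315 probe sets whose mean over the 8 arrays exceeded 5. Of the 22 member probe sets, 17 passed this filter and 5 did not: E2f1 1447840_x_at, E2f2 1455790_at, Rb1 1444400_at and Rbl1 1454293_at and 1432604_at. Every member gene kept at least 1 tested probe set. A call means an adjusted p under 0.05.

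Values of the whole series bear on what follows. Gins1, whose promoter drives the reporter, rose by 1.28 in LLC (SE 0.21, limma adjusted p = 0.00426) and by 1.07 in colon26 (SE 0.21, adjusted p = 0.0262), and was higher in 4 of 4 pairs. For 4 control transcripts, the signal near the 3′ end exceeded that near the 5′ end by a median log2 difference of 2.41 to 2.70 on the 4 arrays numbered 1 and −0.01 to 0.35 on the 4 numbered 2. Of 10 macrophage markers, led in level by Cd14 and Lyz2, 8 fell in LLC and 8 in colon26. Cd14 itself was not among them, with 0.44 in LLC (limma adjusted p = 0.158) and −0.04 in colon26 (adjusted p = 0.940). The log2 of the mean linear signal of all 10 was 5.98 to 6.26 in LLC EGFP-high and 7.35 to 7.41 in LLC EGFP-low arrays, and 7.03 to 7.74 in colon26 EGFP-high and 9.08 to 9.57 in colon26 EGFP-low arrays. All 8 fibroblast markers, led by Col3a1 and Dcn, fell in LLC and 1 of 8 fell in colon26. Their level was 10.27 to 10.35 in LLC EGFP-high and 11.85 to 12.37 in LLC EGFP-low arrays, and 12.03 to 12.09 in colon26 EGFP-high and 12.28 to 12.57 in colon26 EGFP-low arrays. Both neutrophil markers tested fell in both lines. The level over all 3 neutrophil markers on the array, Csf3r included, which was not tested, was 4.70 to 4.97 in LLC EGFP-high and 6.05 to 6.30 in LLC EGFP-low arrays, and 7.23 to 7.57 in colon26 EGFP-high and 9.32 to 9.44 in colon26 EGFP-low arrays. The part of these cells in the members' changes was not tested. In sorted bulk samples, fewer cells of a type and less RNA per cell cannot be told apart. The 5 epithelial markers, led by Krt8 and Epcam, had a level of 10.18 to 10.60 in LLC and 4.99 to 5.31 in colon26. In colon26 Krt8 lay at 5.31 to 5.95 and Epcam at 5.99 to 6.43. These markers of an epithelial tumour were thus close to the low-signal filter of 5 there. In LLC Krt8 lay at 12.36 to 12.80, Krt18 at 8.43 to 9.14 and Epcam at 6.70 to 7.18. Krt19 (3.85 to 4.22) and Cdh1 (2.83 to 3.03) lay below the filter in LLC, so its level came mainly from Krt8. Of 3 tested endothelial markers none fell in LLC and 1 fell in colon26.

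The atypical factors E2f7 and E2f8 and the pocket protein gene Rbl1 were called higher in EGFP-high cells over both lines, and no member was called lower. Over both lines 5 member probe sets of these 3 genes were called higher, where 6.33% of all probe sets tested were called higher and 5.1% lower. In LLC, 4 member probe sets of the same 3 genes were called higher, against backgrounds of 4.27% higher and 7.28% lower. In colon26, 3 probe sets, of E2f7 and Rbl1, were called higher, against 1.47% higher and 0.82% lower. The median change of the 17 tested member probe sets was 0.32 in LLC, 0.47 in colon26 and 0.32 over both, beside 0.01, 0.10 and 0.03 over all probe sets tested. Over all 22 member probe sets the medians were 0.30, 0.37 and 0.29. Without the pairs as a block limma called 0 member probe sets in all 3 comparisons, with 0 (LLC), 1 (colon26) and 3 (both lines) at an unadjusted p under 0.05. Of all 22315 probe sets it likewise called 0 in each comparison, with 1069, 489 and 1255 at that level. Leaving out either colon26 pair also left 0 called in colon26, where 1 pair then remained. Few or none of all probe sets were called there either. After quantile normalization 2 were called in LLC, where E2f7 (adjusted p = 0.0583) and E2f8 1444319_at (adjusted p = 0.116) were lost, 0 in colon26 (4 at an unadjusted p under 0.05) and 4 across both lines. Of all 22315 probe sets that scaling called 1743, 99 and 1657, beside 2577, 510 and 2549 as reported. With the number shared by both lines as the block, only Rbl1 1424156_at (adjusted p = 0.0347) was called in LLC, where E2f7 (adjusted p = 0.0821), E2f8 1436186_at (adjusted p = 0.0755) and E2f8 1444319_at (adjusted p = 0.118) were lost. In colon26 that block left 0 called (5 at an unadjusted p under 0.05), with E2f7 at an adjusted p of 0.184 and the Rbl1 probe sets at 0.0986 and 0.129. Across both lines 4 were called with it, all but E2f8 1444319_at (adjusted p = 0.104). Of all probe sets tested that block called 871 in LLC, 88 in colon26 and 1013 across both lines.

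**Figure D1:**
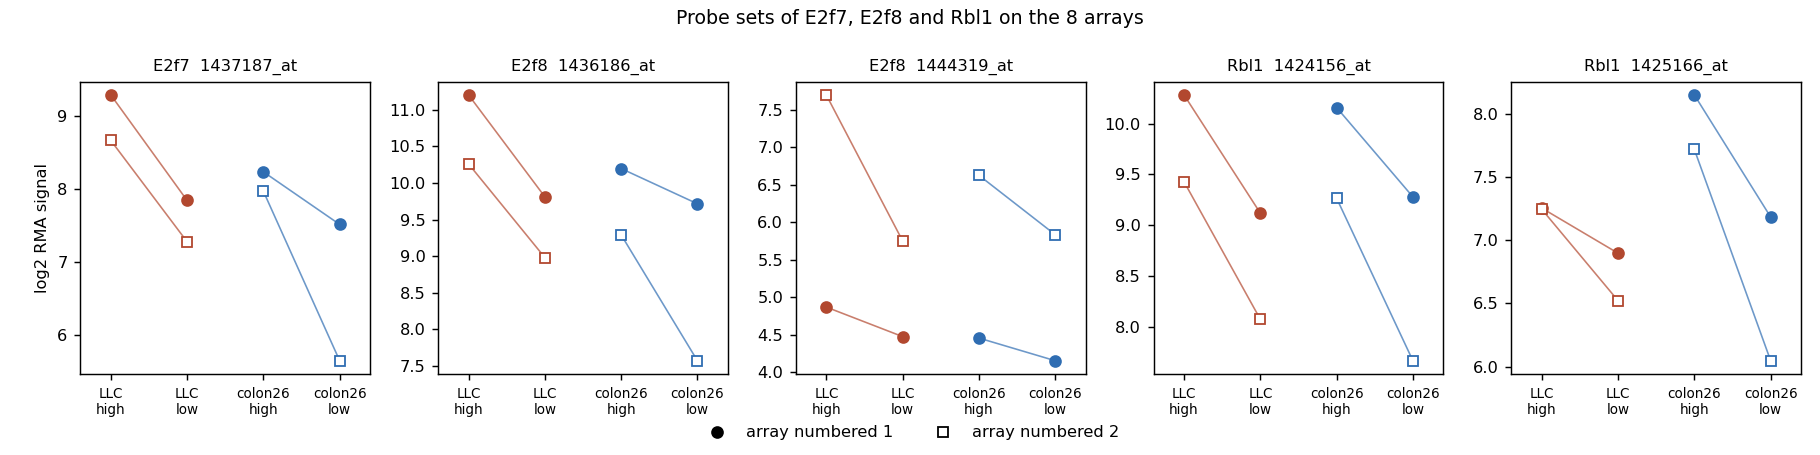
Log2 signal of the 5 member probe sets called higher across both lines, by group, with EGFP-high left of EGFP-low within LLC (red) and colon26 (blue). Filled circles are arrays numbered 1, open squares arrays numbered 2, and lines join the arrays of a pair; every EGFP-high point lies above its EGFP-low partner, and the open squares lie above the filled circles for 1444319_at and below them for 1436186_at of the same gene, E2f8.

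E2f7, a repressor that limits the expression of E2F targets late in S phase, was measured by 1437187_at. Its level was 9.30 and 8.67 in LLC EGFP-high cells, against 7.84 and 7.28 in LLC EGFP-low cells. It was 8.24 and 7.97 in colon26 EGFP-high cells, against 7.52 and 5.64 in colon26 EGFP-low cells. In each line both EGFP-high arrays lay above both EGFP-low arrays, and the EGFP-low array numbered 2 of colon26 was the lowest of the 8. The change was 1.42 in LLC (SE 0.31, 95% interval 0.74 to 2.10, limma adjusted p = 0.0148) and 1.53 in colon26 (SE 0.31, 0.84 to 2.21, adjusted p = 0.0285). Over both lines it was 1.47, or 2.78-fold (SE 0.22, 0.99 to 1.96, adjusted p = 0.00189), higher in 4 of 4 pairs. Pair by pair the change was 1.45 and 1.39 for LLC, and 0.72 and 2.33 for colon26, so the colon26 pairs spread far more widely than those of LLC. Without replicate 1 of colon26 the colon26 change was 2.33 (adjusted p = 0.0625), and without replicate 2 it was 0.72 (adjusted p = 0.549). Leaving out a pair leaves 1 in its line, so such p-values, here and below, take their spread from the pairs of the other line and limma's prior. The LLC change minus the colon26 change was −0.10 (95% interval −1.07 to 0.86, adjusted p = 0.936).

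E2f8, the closest relative of E2f7 and a partner in the same repression, had 2 tested probe sets. With 1436186_at its level was 11.20 and 10.26 in LLC EGFP-high cells, against 9.81 and 8.98 in LLC EGFP-low cells. It was 10.20 and 9.29 in colon26 EGFP-high cells, against 9.72 and 7.57 in colon26 EGFP-low cells. The sorts did not overlap in LLC and overlapped in colon26, although the EGFP-high array was the higher in every pair. The change was 1.33 in LLC (SE 0.26, 0.75 to 1.92, limma adjusted p = 0.0102), 1.10 in colon26 (SE 0.26, 0.51 to 1.69, adjusted p = 0.0670) and 1.22 across both lines (SE 0.19, 0.80 to 1.63, adjusted p = 0.00235), the last equal to 2.33-fold. The colon26 change missed the threshold, and alternatives moved it both ways. It passed in the fit on colon26 arrays alone (adjusted p = 0.00171) and after median centring (1.18, adjusted p = 0.00200). It also passed with a filter at a mean of 7 (limma adjusted p = 0.0154), trend and robust moderation (adjusted p = 0.0226) and 1 probe set a gene (adjusted p = 0.0459). It did not pass with no filter (adjusted p = 0.220), with the number shared by both lines as the block (adjusted p = 0.312) or without a block. The fit on colon26 arrays alone holds only 2 pairs, with changes of 0.48 and 1.72. Its p-value therefore takes its spread largely from limma's prior. It was 0.95 after quantile normalization (adjusted p = 0.217), 1.72 without replicate 1 of colon26 (adjusted p = 0.0659) and 0.48 without replicate 2 (adjusted p = 0.841). The test of the difference between lines gave 0.23 (−0.60 to 1.06, adjusted p = 0.812).

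The second E2f8 probe set, 1444319_at, read 4.87 and 7.70 in LLC EGFP-high cells, against 4.48 and 5.75 in LLC EGFP-low cells. It read 4.46 and 6.63 in colon26 EGFP-high cells, against 4.16 and 5.84 in colon26 EGFP-low cells. The sorts overlapped in both lines, and arrays numbered 2 read higher throughout. All 4 arrays numbered 1 lay below 5, so this probe set passed the filter only through the arrays numbered 2. Its calls, counted above, carry that limit. Its change was 1.17 in LLC (SE 0.31, limma adjusted p = 0.0360), 0.55 in colon26 (SE 0.31, adjusted p = 0.424) and 0.86 across both lines (SE 0.22, 0.37 to 1.34, adjusted p = 0.0320), higher in 4 of 4 pairs. The pairs numbered 2 carried most of it, with 1.94 in LLC and 0.79 in colon26, against 0.39 and 0.30 in the pairs numbered 1. Without replicate 2 of LLC the LLC change was 0.39 (adjusted p = 0.931) and that across both lines 0.47 (adjusted p = 0.306).

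The E2f8 probe sets differed between the array numbers in opposite directions. Arrays numbered 1 minus arrays numbered 2 gave 0.83 to 2.14 in the 4 groups for 1436186_at and −2.83 to −1.28 for 1444319_at. The same difference was positive in all 4 groups for E2f7 (0.27 to 1.87), E2f3 1434564_at (0.47 to 1.19), Rbl1 1424156_at (0.85 to 1.61) and Rb1 1417850_at (0.74 to 1.70). It was also positive in all 4 for E2f5 1460207_s_at (0.23 to 1.07), E2f6 1448835_at (0.11 to 0.47), Rbl1 1425166_at (0.01 to 1.14) and the untested Rbl1 1432604_at (0.10 to 0.48). It was negative in all 4 for E2f4 (−1.98 to −1.02), E2f1 1431875_a_at (−1.53 to −1.01), E2f1 1417878_at (−1.30 to −0.56) and the untested Rb1 1444400_at (−0.37 to −0.14). For E2f4 and both E2f1 probe sets the difference in every group was larger than the EGFP-high minus EGFP-low change of any pair. The 3′ to 5′ difference of the control transcripts moved with the number, and its part in these differences was not tested. Among arrays numbered 1 alone, an alternative chosen after the data were seen, E2f7 gave 1.09 across both lines (adjusted p = 0.111), E2f8 1436186_at 0.94 (adjusted p = 0.205) and Rbl1 1424156_at 1.02 (adjusted p = 0.0763). Among arrays numbered 2 alone the 3 changes were 1.86 (adjusted p = 0.0270), 1.50 (adjusted p = 0.0511) and 1.47 (adjusted p = 0.0507).

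**Figure D2:**
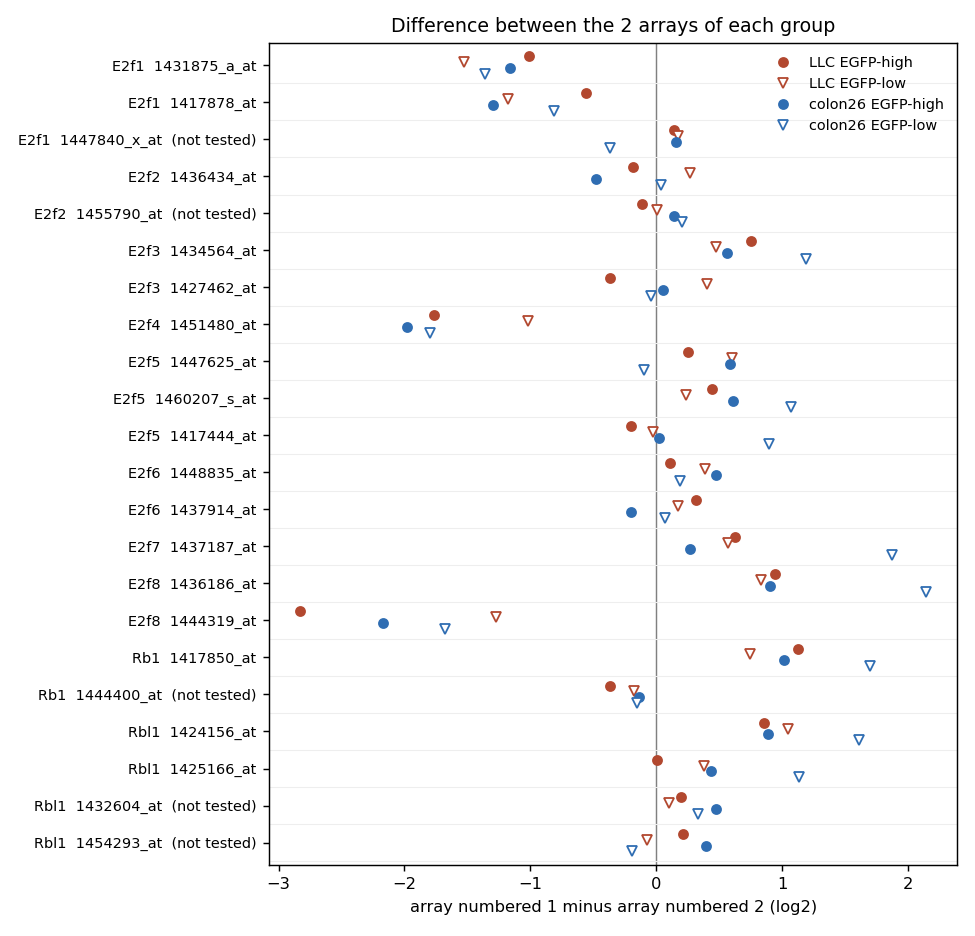
Array numbered 1 minus array numbered 2 (log2) for each of the 22 member probe sets, 1 point for each of the 4 groups, with EGFP-high as circles and EGFP-low as triangles in LLC (red) and colon26 (blue). E2f4, E2f1 1431875_a_at, E2f1 1417878_at, E2f8 1444319_at and Rb1 1444400_at lie left of 0 in all groups. E2f7, E2f8 1436186_at, E2f3 1434564_at, E2f5 1460207_s_at, E2f6 1448835_at, Rb1 1417850_at and Rbl1 1424156_at, 1425166_at and 1432604_at lie right of it.

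Rbl1 encodes p107, the pocket protein that binds mainly E2F4 and whose gene is itself driven by E2F. With 1424156_at its level was 10.28 and 9.43 in LLC EGFP-high cells, against 9.12 and 8.08 in LLC EGFP-low cells. It was 10.16 and 9.27 in colon26 EGFP-high cells, against 9.28 and 7.67 in colon26 EGFP-low cells. The LLC sorts did not overlap, and in colon26 the lower EGFP-high array fell just short of the higher EGFP-low array. The change was 1.26 in LLC (SE 0.22, 0.78 to 1.73, limma adjusted p = 0.00495) and 1.24 in colon26 (SE 0.22, 0.76 to 1.72, adjusted p = 0.0135). Over both lines it was 1.25, or 2.37-fold (SE 0.15, 0.91 to 1.58, adjusted p = 5.6e-04), with pair changes of 1.16 and 1.35 in LLC and 0.88 and 1.60 in colon26. The difference between the lines was 0.02 (−0.66 to 0.69, adjusted p = 0.985). Without replicate 2 of LLC the LLC change was 1.16 (adjusted p = 0.0574), and the colon26 change was 1.60 (adjusted p = 0.0703) without replicate 1 of colon26 and 0.88 (adjusted p = 0.465) without replicate 2.

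The second tested Rbl1 probe set, 1425166_at, read 7.25 and 7.24 in LLC EGFP-high cells, against 6.90 and 6.52 in LLC EGFP-low cells. It read 8.15 and 7.72 in colon26 EGFP-high cells, against 7.18 and 6.05 in colon26 EGFP-low cells. Neither line showed overlap between the sorts. The change was 0.54 in LLC (SE 0.22, 0.05 to 1.03, limma adjusted p = 0.150), 1.32 in colon26 (SE 0.22, 0.83 to 1.80, adjusted p = 0.0107) and 0.93 across both lines (SE 0.16, 0.58 to 1.27, adjusted p = 0.00382). The LLC change minus the colon26 change was −0.78 (−1.47 to −0.09, unadjusted p = 0.0304, adjusted p = 0.281) and was not called. Without replicate 2 of colon26 the change across both lines was 0.75 (adjusted p = 0.0860). The remaining Rbl1 probe sets had means of 3.59 and 3.95 and were not tested.

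Rb1, the founding pocket protein and a tumour suppressor, showed no called change. With 1417850_at its level was 7.96 and 6.83 in LLC EGFP-high cells, against 7.62 and 6.88 in LLC EGFP-low cells, and 8.60 and 7.58 in colon26 EGFP-high cells, against 8.47 and 6.77 in colon26 EGFP-low cells. The sorts overlapped in both lines, and the EGFP-high array was the higher in 3 of 4 pairs. The change was 0.15 in LLC (−0.34 to 0.63, limma adjusted p = 0.749), 0.47 in colon26 (−0.01 to 0.96, adjusted p = 0.340) and 0.31 across both lines (−0.04 to 0.65, adjusted p = 0.235). Rb1 1444400_at had a mean of 3.45 and was not tested.

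**Figure D3:**
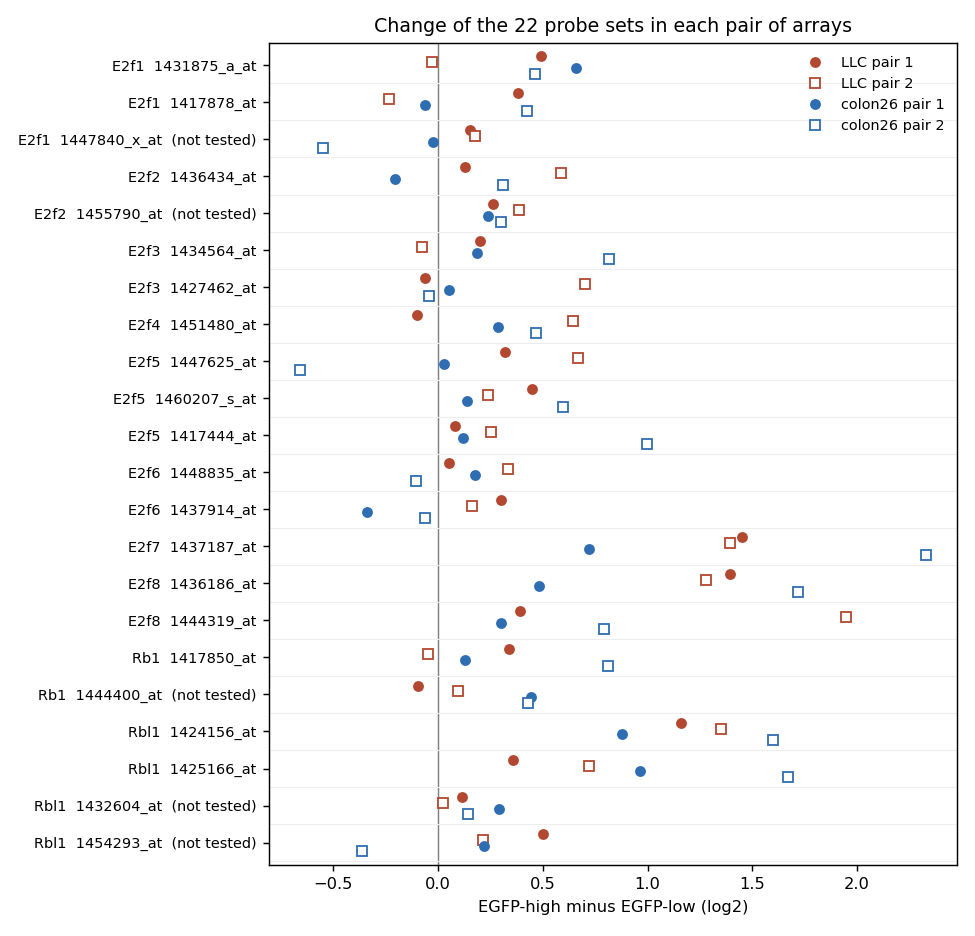
EGFP-high minus EGFP-low change (log2) of each of the 22 member probe sets in the 4 pairs of arrays, LLC in red and colon26 in blue, pairs numbered 1 as circles and pairs numbered 2 as squares. All 4 points lie right of 0 for E2f7 and both tested probe sets of E2f8 and of Rbl1, and the E2f7 points run between 0.72 and 2.33. The same holds for E2f5 1460207_s_at and 1417444_at, which were not called. It also holds for E2f2 1455790_at and Rbl1 1432604_at, which were not tested.

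The activators E2f1, E2f2 and E2f3 gave no call in either line or over both. E2f1 1431875_a_at read 6.66 and 7.67 in LLC EGFP-high cells, against 6.17 and 7.70 in LLC EGFP-low cells, and 7.33 and 8.49 in colon26 EGFP-high cells, against 6.68 and 8.03 in colon26 EGFP-low cells. The sorts overlapped in both lines and the array numbers differed more than the sorts. Its change was 0.23 in LLC (−0.22 to 0.68, limma adjusted p = 0.534), 0.56 in colon26 (0.11 to 1.01, adjusted p = 0.222) and 0.40 across both lines (0.08 to 0.71, adjusted p = 0.105). E2f1 1417878_at read 6.26 and 6.82 in LLC EGFP-high cells, against 5.88 and 7.05 in LLC EGFP-low cells, and 6.18 and 7.48 in colon26 EGFP-high cells, against 6.24 and 7.05 in colon26 EGFP-low cells. With sorts that overlapped in both lines, it gave 0.07 in LLC, 0.18 in colon26 and 0.13 across both lines (−0.22 to 0.47, adjusted p = 0.659), with 2 of 4 pairs higher. E2f1 1447840_x_at, whose suffix marks probes that may bind other transcripts, had a mean of 4.94 and was not tested.

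E2f2 1436434_at read 6.48 and 6.67 in LLC EGFP-high cells, against 6.35 and 6.08 in LLC EGFP-low cells, and 5.33 and 5.81 in colon26 EGFP-high cells, against 5.53 and 5.50 in colon26 EGFP-low cells. The LLC sorts did not overlap and the colon26 sorts did. Its change was 0.36 in LLC (−0.11 to 0.82, limma adjusted p = 0.328), 0.05 in colon26 (−0.41 to 0.52, adjusted p = 0.926) and 0.21 across both lines (−0.13 to 0.54, adjusted p = 0.429). E2f2 1455790_at was not tested, having a mean of 4.45. It read 5.15 and 5.27 in LLC EGFP-high cells, against 4.89 and 4.88 in LLC EGFP-low cells, and 4.05 and 3.91 in colon26 EGFP-high cells, against 3.82 and 3.61 in colon26 EGFP-low cells. All 4 pairs were thus higher in EGFP-high cells by 0.24 to 0.39, at levels close to the filter or below it.

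E2f3 1434564_at read 8.35 and 7.60 in LLC EGFP-high cells, against 8.15 and 7.68 in LLC EGFP-low cells, and 8.36 and 7.80 in colon26 EGFP-high cells, against 8.17 and 6.98 in colon26 EGFP-low cells. The sorts overlapped in both lines. Its change was 0.06 in LLC (−0.40 to 0.53, limma adjusted p = 0.903), 0.50 in colon26 (0.04 to 0.97, adjusted p = 0.293) and 0.28 across both lines (−0.05 to 0.61, adjusted p = 0.259). E2f3 1427462_at read 5.99 and 6.35 in LLC EGFP-high cells, against 6.05 and 5.65 in LLC EGFP-low cells, and 6.65 and 6.59 in colon26 EGFP-high cells, against 6.59 and 6.64 in colon26 EGFP-low cells. All 4 colon26 arrays thus lay within a narrow range above LLC EGFP-low. It gave 0.32 in LLC, 0.00 in colon26 and 0.16 across both lines (−0.18 to 0.50, adjusted p = 0.560).

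E2f4 and E2f5, the factors that bring pocket proteins to promoters in resting cells, gave no call. E2f4 1451480_at read 6.42 and 8.19 in LLC EGFP-high cells, against 6.52 and 7.54 in LLC EGFP-low cells, and 6.63 and 8.61 in colon26 EGFP-high cells, against 6.34 and 8.14 in colon26 EGFP-low cells. The arrays numbered 2 were the higher in all 4 groups, and the sorts overlapped. Its change was 0.27 in LLC (−0.21 to 0.75, limma adjusted p = 0.489), 0.38 in colon26 (−0.11 to 0.86, adjusted p = 0.431) and 0.32 across both lines (−0.02 to 0.66, adjusted p = 0.208).

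The 3 E2f5 probe sets differed among themselves. E2f5 1447625_at read 9.97 and 9.72 in LLC EGFP-high cells, against 9.65 and 9.05 in LLC EGFP-low cells, and 10.52 and 9.94 in colon26 EGFP-high cells, against 10.49 and 10.59 in colon26 EGFP-low cells. The sorts did not overlap in LLC and overlapped in colon26. Its change was 0.49 in LLC (0.01 to 0.98, limma adjusted p = 0.182) and −0.31 in colon26 (−0.80 to 0.17, adjusted p = 0.507). The LLC change minus the colon26 change was 0.81 (0.13 to 1.49, unadjusted p = 0.0244, adjusted p = 0.256) and was not called. E2f5 1460207_s_at read 8.73 and 8.28 in LLC EGFP-high cells, against 8.28 and 8.04 in LLC EGFP-low cells, and 8.99 and 8.38 in colon26 EGFP-high cells, against 8.85 and 7.78 in colon26 EGFP-low cells. It gave 0.34 in LLC, 0.37 in colon26 and 0.36 across both lines (0.05 to 0.67, adjusted p = 0.134). E2f5 1417444_at read 8.02 and 8.22 in LLC EGFP-high cells, against 7.93 and 7.96 in LLC EGFP-low cells, and 8.39 and 8.37 in colon26 EGFP-high cells, against 8.27 and 7.37 in colon26 EGFP-low cells. It gave 0.17 in LLC, 0.56 in colon26 and 0.36 across both lines (0.01 to 0.72, adjusted p = 0.180). The EGFP-high array was the higher in 4 of 4 pairs for both, which the annotation assigns to 1 shared transcript record, so they are not independent readings.

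E2f6, a repressor that works without pocket proteins, gave no call between the sorts. E2f6 1448835_at read 9.08 and 8.97 in LLC EGFP-high cells, against 9.02 and 8.64 in LLC EGFP-low cells, and 7.98 and 7.51 in colon26 EGFP-high cells, against 7.80 and 7.61 in colon26 EGFP-low cells. The sorts overlapped in both lines, while all LLC arrays lay above all colon26 arrays. The change across both lines was 0.11 (−0.19 to 0.42, limma adjusted p = 0.651). E2f6 1437914_at read 6.39 and 6.08 in LLC EGFP-high cells, against 6.09 and 5.92 in LLC EGFP-low cells, and 4.13 and 4.33 in colon26 EGFP-high cells, against 4.47 and 4.39 in colon26 EGFP-low cells. The LLC sorts overlapped, and both colon26 EGFP-high arrays lay below both EGFP-low arrays. Its change across both lines was 0.02 (−0.28 to 0.31, adjusted p = 0.959).

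Whether the sort moved the members differently in LLC and colon26 was asked with the difference of the changes. No member probe set was called (0 of 17, limma), and 2 had an unadjusted p under 0.05, E2f5 1447625_at and Rbl1 1425166_at. Over all probe sets 0.95% were called in either direction. The 95% intervals of the 17 differences reached down to −1.47 and up to 1.60, so a missed call does not show that the lines responded alike.

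The level of several members differed between the lines within a sort, tested with 4 group means and the array number as a block. The lines also differed in time as tumours, 4 weeks for LLC and 2 weeks for colon26. They differed in the level of macrophage and neutrophil markers too, and in EGFP-high cells in that of fibroblast markers. These differences cannot be told apart from that of the line itself. In EGFP-high cells 3 of the 17 probe sets were called higher in LLC and 1 lower, beside 14.5% higher and 18.3% lower over all probe sets. In EGFP-low cells 3 were higher in LLC and 2 lower, beside 22.6% higher and 18.2% lower. These shares are near or below the background. E2f6, the Polycomb-linked repressor, was higher in LLC with 1448835_at, by 1.28 in EGFP-high cells (SE 0.18, limma adjusted p = 0.00200) and by 1.12 in EGFP-low cells (SE 0.18, adjusted p = 0.00317). The counts of higher calls include E2f6 1437914_at in both sorts, which passed the filter only through LLC, since all 4 colon26 arrays lay below 5. Its differences of 2.01 in EGFP-high and 1.57 in EGFP-low cells are therefore given as a description.

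E2f2 1436434_at was higher in LLC by 1.00 in EGFP-high cells (SE 0.22, limma adjusted p = 0.0123) and by 0.70 in EGFP-low cells (SE 0.22, adjusted p = 0.0383). E2f1 1431875_a_at fell by 0.75 in LLC relative to colon26 EGFP-high cells (SE 0.19, adjusted p = 0.0237). In EGFP-low cells, E2f3 1427462_at gave −0.77 (SE 0.22, adjusted p = 0.0277) and E2f5 1447625_at −1.19 (SE 0.22, adjusted p = 0.00580). The other tested probe sets of E2f1, E2f3 and E2f5 were not called in these comparisons. For EGFP-low cells E2f3 1434564_at gave 0.34 (limma adjusted p = 0.244), E2f5 1460207_s_at −0.15 (adjusted p = 0.614) and E2f5 1417444_at 0.13 (adjusted p = 0.733). For EGFP-high cells E2f1 1417878_at gave −0.29 (adjusted p = 0.354). The E2f1 call was lost after median centring (−0.63, adjusted p = 0.0506) and without any one of the 4 EGFP-high arrays (adjusted p = 0.0589 to 0.200). The E2f2 call in EGFP-low cells was lost without any one of the 4 EGFP-low arrays (adjusted p = 0.0561 to 0.252), and the E2f2 call in EGFP-high cells without either LLC array or the colon26 array numbered 1 (adjusted p = 0.0585 to 0.113). Leaving out an array leaves 1 in its group, which is then assumed to vary like the other groups. The E2f3 call was lost after median centring (−0.58, adjusted p = 0.0799) and without either colon26 array or the LLC array numbered 2 (adjusted p = 0.0635 to 0.230), and the E2f5 call without the LLC array numbered 2 (−1.01, adjusted p = 0.0556). Without the array number as a block none of these calls remained, E2f6 1448835_at included (adjusted p = 0.0537 in EGFP-high and 0.0723 in EGFP-low cells); the 1 call left in each sort was E2f6 1437914_at.

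E2f7, E2f8, Rb1 and Rbl1 gave no call between the lines. E2f7 was 0.88 higher in LLC in EGFP-high cells (0.03 to 1.73, limma adjusted p = 0.104) and 0.98 higher in EGFP-low cells (0.13 to 1.83, adjusted p = 0.0657), where it was 1.68 without the colon26 array numbered 1 (adjusted p = 0.00372) and 0.29 without the colon26 array numbered 2 (adjusted p = 0.326). E2f8 1436186_at gave 0.99 (0.21 to 1.76, adjusted p = 0.0561) and 0.75 (−0.02 to 1.52, adjusted p = 0.105), and passed in EGFP-high cells after quantile normalization (1.13, adjusted p = 0.0243). In EGFP-low cells it was 1.38 without the colon26 array numbered 1 (adjusted p = 0.00420) and 0.13 without the colon26 array numbered 2 (adjusted p = 0.616). Rb1 1417850_at gave −0.70 (−1.27 to −0.12, adjusted p = 0.0661) and −0.37 (−0.95 to 0.20, adjusted p = 0.255). Rbl1 1424156_at gave 0.14 (−0.39 to 0.68, adjusted p = 0.666) and 0.12 (−0.41 to 0.66, adjusted p = 0.684). Rbl1 1425166_at gave −0.68 (−1.32 to −0.05, unadjusted p = 0.0377, adjusted p = 0.0917) and 0.09 (−0.54 to 0.73, adjusted p = 0.796).

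**Figure D4:**
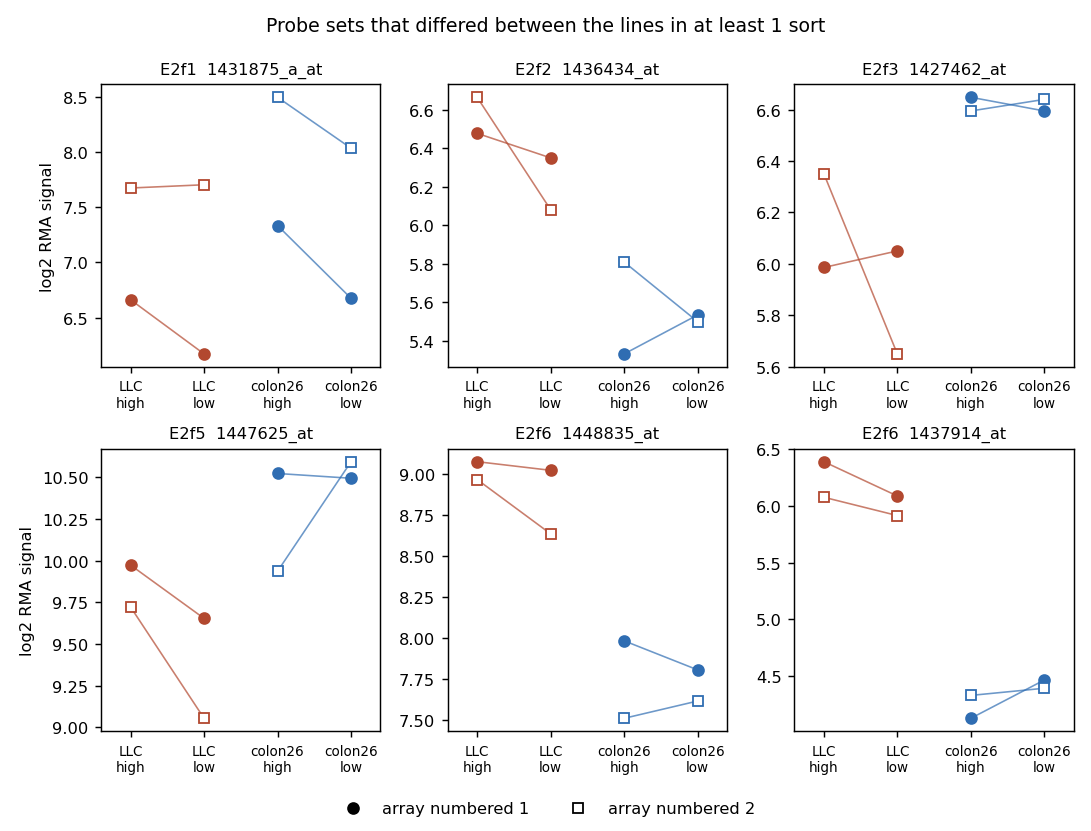
Log2 signal of the 6 member probe sets called between the lines in at least 1 sort, with LLC in red and colon26 in blue, EGFP-high left of EGFP-low, arrays numbered 1 as circles and numbered 2 as squares, and a line joining each pair. All LLC arrays lie above all colon26 arrays for both E2f6 probe sets; 1437914_at reads 5.92 to 6.39 in LLC and 4.13 to 4.47, below the filter, in colon26.

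The other genes of the pathway were taken from lists of textbook roles, with 1 probe set a gene, that of the highest mean. Over all 11145 genes tested on this scale 5.09% rose and 6.15% fell in LLC, 1.86% rose and 1.19% fell in colon26, and 7.25% rose and 4.93% fell across both lines, with median changes of 0.04, 0.10 and 0.05. Of 27 tested target genes of the G1/S transition, the step at which E2F drives entry into DNA synthesis, LLC had 20 that rose and colon26 had 9, with 24 across both lines, and none fell. Their median change was 1.05, 0.87 and 0.89. Tk1, thymidine kinase, rose by 1.57 across both lines (SE 0.17, limma adjusted p = 2.9e-04) and Brca1, a homologous recombination factor, by 1.40 (SE 0.15, adjusted p = 2.7e-04). Gins1 was sorted for in effect, through its promoter, and stands outside these counts.

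Of the 7 MuvB core, B-Myb and FoxM1 genes, whose complexes either repress or activate cell cycle promoters, 3 rose in LLC, 3 in colon26 and 4 across both lines. Mybl2, which encodes B-Myb, rose by 1.20 across both lines (SE 0.18, limma adjusted p = 0.00179) and Lin54, the subunit that binds the CHR, by 1.13 (SE 0.16, adjusted p = 0.00166). Of the 9 cyclin and kinase genes that act on pocket proteins, 2 rose in LLC, 1 in colon26 and 5 across both lines, led by Ccna2 (cyclin A2, 1.57, adjusted p = 3.2e-04) and Ccne2 (cyclin E2, 1.04, adjusted p = 0.00692). Of 4 tested inhibitors of these kinases 1 rose in each line and over both, Cdkn2d, with 1.20 across both lines (adjusted p = 0.00117). Cdkn2c, another INK4 inhibitor, gave −0.64 in LLC and 0.89 in colon26, and the difference between the lines was −1.53 (SE 0.29, adjusted p = 0.0420), where 1.04% of genes were called in either direction.

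The DP proteins, which pair with the classical E2F factors, were not called, with changes across both lines of 0.40 for Tfdp1 (adjusted p = 0.0762, limma) and 0.22 for Tfdp2 (adjusted p = 0.346). Rbl2, which encodes the remaining pocket protein p130, gave 0.22 (adjusted p = 0.355). None of 7 chromatin regulators recruited by pocket proteins was called in either line or over both, with 0.35 for Rbbp7 (adjusted p = 0.124) and 0.15 for Hdac2 (adjusted p = 0.518). Of 8 tested partners of E2F6 in Polycomb complexes none rose and 1 fell in LLC, Rnf2, by 0.92 (adjusted p = 0.0143). Its change in colon26 was 0.25 (adjusted p = 0.559). Yaf2 gave 0.10 across both lines (adjusted p = 0.705). On the same scale of 1 probe set a gene, 3 of the 10 members rose in LLC, 2 in colon26 and 3 across both lines.

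**Figure D5:**
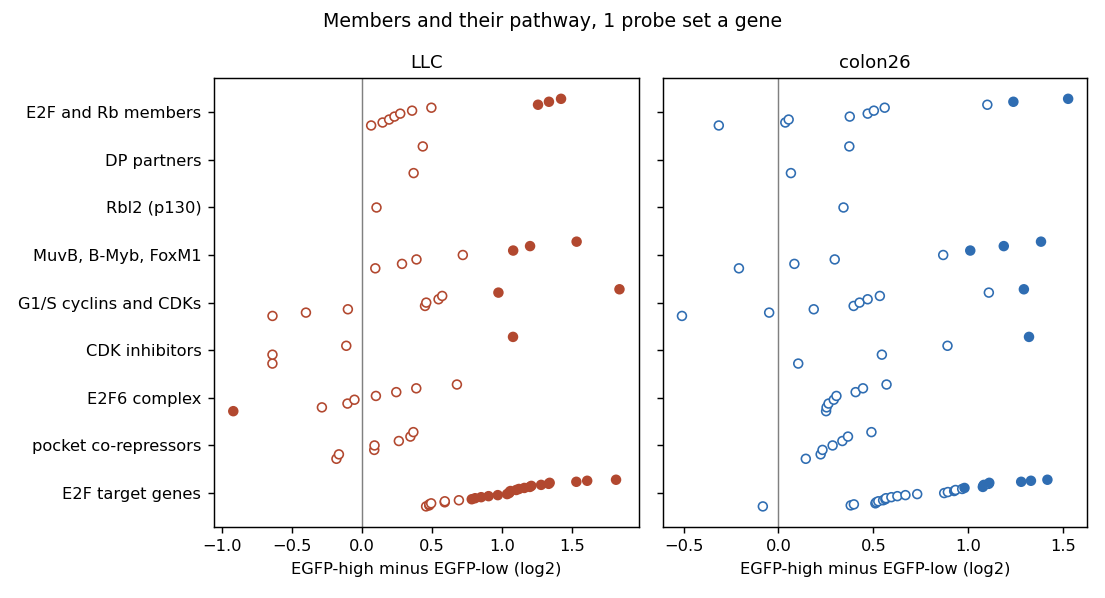
EGFP-high minus EGFP-low change (log2) of the members and of each pathway list in LLC (left) and colon26 (right), 1 point a gene, filled where the adjusted p was under 0.05. Of the 27 E2F target genes 20 are filled in LLC and 9 in colon26, and no pocket co-repressor is filled in either line.

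The patterns of the members over the 8 arrays were set beside those of 11144 other genes, as a description in which the arrays share lines, sorts and numbers. Closest to E2f7 were Lbr, Ercc6l and Plk4 (Pearson r 0.994, 0.994 and 0.992, 8 arrays). Closest to E2f8 were Tmem209, Usp1 and Cenpk (0.994, 0.993 and 0.992). Closest to Rbl1 were Sass6, Fignl1 and Nup62 (0.996, 0.994 and 0.994). The other members had a different nearest gene each, Esrra for E2f1 (0.993), Slc25a39 for E2f2 (0.983), Ibtk for E2f3 (0.994), Edc4 for E2f4 (0.994), Boll for E2f5 (0.986), Slc6a6 for E2f6 (0.992) and Strn for Rb1 (0.987). The next in rank were Msto1 and Sfswap for E2f1, Bzw2 and Bsn for E2f2, Ptcd1 and Isg20l2 for E2f3, and Bag6 and Ccdc124 for E2f4. They were Prrt1 and Fhl3 for E2f5, Cog5 and Anp32a for E2f6, and Trappc8 and Ythdc2 for Rb1.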

How the data were processed

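RNA from the sorted cells was labelled as cRNA and hybridised, 1 sample an array, per the labels' protocols. The deposited values, on a log2 scale, are what the authors obtained for 45101 probe sets with RMA, which the submitters' processing notes name without version or options (not given in the sources used here). For colon26, 4 descriptions name LLC against the title, source and cell line fields, and those fields were followed. The number of arrays, 2 a group, limits the precision.

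Genes were named by the platform's annotation: 34945 probe sets carried 1 symbol, 932 several, 9160 none, and 64 were controls. The 22315 probe sets with a mean above 5 over the 8 arrays were tested, each as its own unit, with limma 3.58.1 in R 4.3.3 and Benjamini-Hochberg adjustment at 0.05. Changes between sorts had the line and number pair as a block (2 residual and 8.43 prior degrees of freedom). Deviations from the group means correlated between the sorts of a number at 0.929 in LLC and 0.894 in colon26, and between the lines of a number at 0.863 in EGFP-high cells. A number effect shared by the lines and pairs within a line cannot be told apart by these values, and the labels name no pairs. Line differences had 4 group means and the number as a block (3 residual and 4.22 prior degrees of freedom). The fits with pairs as a block were tested on data simulated under that same model, so this cannot bear on the choice of block. The fits between lines were not tested in this way. Intervals are limma's at 95%.

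The members and the lists were chosen with earlier results of these data known. Named were all member probe sets, Gins1, the 2 largest rises and falls of each pathway list over both lines (or the 2 highest means), the 2 highest markers of a list, and the 3 genes most like each member by Pearson r over the arrays. Rnf2 in LLC, Cdkn2c and the values of single epithelial markers in each line were given after their values were seen. Alternatives were filters, scalings, moderation, blocks, 1 probe set a gene, arrays of a line and leaving out a pair or array; fits within 1 array number were added after the data were seen. Promoter windows came from RefSeq (GRCm38.p6). Python 3.11.15 and matplotlib 3.10.9 drew the plots.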

Additional observations from a re-analysis of the deposited data

Results flagged for a closer look

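In 2 member probe sets both LLC pairs were higher and both colon26 pairs were lower in EGFP-high cells. The share of all probe sets with this pattern was not counted, so the 2 are given as a description only. E2f6 1437914_at gave 0.30 and 0.16 for the pairs of LLC, against −0.34 and −0.06 for those of colon26, so that the LLC minus colon26 difference of the changes was 0.43 (95% interval −0.16 to 1.02, limma adjusted p = 0.478), which was not called. Its colon26 arrays read 4.13 to 4.47, below the filter of 5. E2f1 1447840_x_at gave 0.15 and 0.18 for the pairs of LLC, against −0.02 and −0.55 for those of colon26, a difference of 0.45 that was not tested because the mean of the probe set was below the filter.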

How the results depend on the processing

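Over both lines the changes of E2f7, E2f8 1436186_at and Rbl1 1424156_at kept their direction in all 14 alternatives each and stayed called in all 11 that kept a replicate block and arrays of both numbers. Without the replicate block limma called 0 member probe sets in LLC (0 at an unadjusted p under 0.05), 0 in colon26 (1 at that level) and 0 over both (3 at that level), with adjusted p over both lines of 0.617 for E2f7, 0.852 for Rbl1 1424156_at and 0.667 for Rbl1 1425166_at. Of all probe sets tested it also called 0 in each of these comparisons. With the number shared by the lines as the block the counts were 1 in LLC, 0 in colon26 (5 at an unadjusted p under 0.05) and 4 over both. With no filter they were 2, 0 (8 at an unadjusted p under 0.05) and 4 of 22, and after quantile normalization 2, 0 (4 at an unadjusted p under 0.05) and 4 of 17, against 4, 3 and 5 of 17 as reported. Of all 45037 probe sets the fit with no filter called 1602, 186 and 1590. Taking 1 probe set a gene left 3 over both lines. Leaving out a pair gave 2 to 4 in LLC, 0 to 4 in colon26 and 3 to 5 over both lines. Arrays numbered 1 alone gave 0 over both lines (5 at an unadjusted p under 0.05) and arrays numbered 2 alone gave 1. The difference between the lines called 0 member probe sets in all alternatives. For LLC minus colon26, EGFP-high and EGFP-low counts were 8 and 10 with no filter, 1 and 1 with no replicate block, and 2 to 3 and 2 to 7 when an array was left out, against 4 and 5; a filter at a mean of 7 gave 2 in EGFP-low cells. Without the colon26 EGFP-low array numbered 1, E2f3 1434564_at (0.64, adjusted p = 0.0443) and E2f5 1417444_at (0.61, adjusted p = 0.0461) were called between the lines. Without the LLC EGFP-high array numbered 1, E2f8 1444319_at was called (1.30, adjusted p = 0.0376), and without the colon26 EGFP-low array numbered 2, Rb1 1417850_at (−0.74, adjusted p = 0.0492). Over all probe sets quantile normalization gave 801 higher and 942 lower in LLC, 13 and 86 in colon26 and 887 and 770 over both lines; median centring gave 832 and 249 in colon26 and moved the median of all probe sets between the lines to 0.08 in EGFP-high and 0.23 in EGFP-low cells. Over all probe sets the alternatives called 0 to 3208 in LLC (2577 as reported), 0 to 1081 in colon26 (510), 0 to 3306 over both lines (2549), 0 to 757 for the difference between the lines (212), 1602 to 14427 between the lines in EGFP-high cells (7320) and 1801 to 20723 in EGFP-low cells (9103). The causes of these shifts were not tested.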
